A study of Rattus norvegicus with 18 samples.

Results

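The subject is 10 genes of rat chromosome 2: Chd1l, Tsc22d2, Dclk1, Ect2, Eif5a2, Kcnab1, Snx27, Slc35a3, Mfsd1 and Nhlrc3. At least 1 array reading of each differed in kidney between a congenic strain and its parent strain. The genes were selected on the strain difference measured on these same arrays, over all rats and within runs of 6 arrays, so the strain values and their evenness over those runs are given here as a description and carry no test. Every probe set annotated to them was taken, which gave 20 of the 31042 non-control probe sets on the array and 10 of the 14217 genes named on it. A probe set is a group of short oligonucleotides that together report 1 transcript, and a gene can have several. Of the 20, 16 passed a filter on dim probe sets and 4 did not, and each gene kept at least 1.

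Each of the 18 rats gave a whole kidney sample, hybridised to its own Affymetrix Rat Genome 230 2.0 array. The S.SHR(2) group holds 9 rats of a congenic strain, which the labels describe as bred from SS/Jr and SHR/NHsd and as protected in the kidney, and whose name places the introduced SHR segment on chromosome 2. The Dahl S group holds 9 rats of the Dahl salt-sensitive strain SS/Jr, an inbred model of salt-induced hypertension and kidney damage. Both groups therefore share the SS/Jr background, and what limits the comparison as a model is that the congenic segment carries many genes at once. The design text speaks of males at weeks 4, 12 and 20, with 3 rats per strain at each age. The labels give an age for 2 rats only: Dahl S replicate 2 was 4 weeks old and Dahl S replicate 4 was 12 weeks old, both male and on 0.3% salt. The samples stand in the deposit as 3 runs of 6, each with 3 rats of either strain, and these runs are called blocks 1, 2 and 3. Replicates 1 to 3 of each strain lie in block 1, 4 to 6 in block 2 and 7 to 9 in block 3. A block is a place in the deposit and was not read as an age, a date or a treatment. Block 1 contains the rat labelled 4 weeks and block 2 the rat labelled 12 weeks.

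A congenic strain carries a stretch of a donor strain's chromosome on a recipient's background, so the genes inside that stretch are those at which the strains can differ in DNA. A sequence difference in or beside a gene that alters its own expression acts locally, and the usual question is whether the difference in mRNA is present at every age and in every condition. On an oligonucleotide array a base difference under a probe can also change the reading without any change in mRNA, which is why several probe sets of a gene are compared where they exist. Probe sequences and strain genotypes were not used here, so this was not tested.

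Intensities are the deposited values on a linear scale, in arbitrary units, with the same trimmed mean of 150 on every array, and no pair of arrays was identical. Differences are on the scale log2(intensity + 16) after quantile normalization, S.SHR(2) minus Dahl S, and understate the change of dim probe sets. Errors of strain differences over all rats are standard errors from the limma fit without covariates, so they include the spread between blocks. Errors of differences between blocks are from the fit of the 6 strain-by-block means. Errors of intensities are SDs over the 9 rats of a strain. No level of a probe set is set against that of another. Among 11 kidney parenchyma markers named on the array, 10 passed the filter and Pvalb did not. Their summed intensity spanned 26147.8 to 35050.9 in S.SHR(2) and 24236.7 to 34636.4 in Dahl S (two-sided exact permutation p = 0.52). None of the 4 adrenal markers named on the array passed the filter. They summed to 25.9 to 77.1 units in S.SHR(2) and 22.1 to 71.5 units in Dahl S (exact permutation p = 0.95). Cyp11b1, an adrenal steroid enzyme, averaged 2.46 units in S.SHR(2) and 5.79 units in Dahl S, and Th 25.3 and 25.8 units. Star and Cyp17a1 went the other way, at 12.0 and 9.16 units in S.SHR(2) and 10.0 and 8.39 units in Dahl S. The 4 leukocyte markers summed to 90.3 to 384.6 in S.SHR(2) and 100.3 to 527.0 in Dahl S (exact permutation p = 0.39). Ptprc averaged 119.4 units in S.SHR(2) and 158.2 units in Dahl S, and Cd68 106.7 and 122.8 units. Cd3e and Itgam did not pass the filter. Itgam, a defining marker of myeloid cells, averaged 4.7 units in S.SHR(2) and 5.82 units in Dahl S. The permutations ignored the blocks, between which the kidney and leukocyte sums differed, so they do not show that the strains had the same composition. In whole kidney, fewer cells of a type and less RNA per cell cannot be told apart.

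The start regions of 9 of the 10 genes, all but Snx27, were taken from the RefSeq promoter table of build GRCr8, and the 250 bases before the start were searched for CACGTG and for CCAAT on both strands. CACGTG, its own reverse complement, is the core motif bound by many basic helix-loop-helix factors such as MYC and TFEB, and CCAAT is bound by NF-Y and is frequent in genes of cell division. No CACGTG can overlap a CCAAT. The 3 regions with the most matches are shown, with the motif in capitals. They were picked by the count of matches and not by any sequence difference between the strains. The sequence is that of the reference rat; that of SS/Jr and SHR/NHsd was not analysed here.
Mfsd1, chr2:154155954-154156203 (plus strand), CACGTG in capitals: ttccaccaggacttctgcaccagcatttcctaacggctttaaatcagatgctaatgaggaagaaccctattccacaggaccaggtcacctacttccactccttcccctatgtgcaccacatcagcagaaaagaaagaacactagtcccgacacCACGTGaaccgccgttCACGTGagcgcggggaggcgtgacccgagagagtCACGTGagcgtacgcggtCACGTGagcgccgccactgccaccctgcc
Eif5a2, chr2:113657584-113657833 (plus strand), CACGTG in capitals: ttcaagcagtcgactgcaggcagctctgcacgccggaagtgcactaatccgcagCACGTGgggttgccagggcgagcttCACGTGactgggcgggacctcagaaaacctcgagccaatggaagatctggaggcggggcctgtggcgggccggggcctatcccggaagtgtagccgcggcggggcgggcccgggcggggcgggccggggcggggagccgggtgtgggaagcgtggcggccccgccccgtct
Ect2, chr2:111966627-111966876 (minus strand), CCAAT in capitals: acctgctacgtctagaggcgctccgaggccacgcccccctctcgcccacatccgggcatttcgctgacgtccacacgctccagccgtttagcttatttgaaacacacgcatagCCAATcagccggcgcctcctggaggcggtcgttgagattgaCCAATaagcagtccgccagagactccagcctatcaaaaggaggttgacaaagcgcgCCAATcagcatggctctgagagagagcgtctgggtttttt
Mfsd1 held CACGTG 4 times, and 6 of 27457 promoters of this length (0.0219%) held it 4 or more times. Eif5a2 held it 2 times, a count reached by 0.455% of promoters. The other 7 regions held no CACGTG, against 5.79% of all promoters with at least 1. Ect2 held CCAAT 3 times, a count reached by 2.73% of promoters, Slc35a3 held it 2 times (9.77% of promoters) and Eif5a2 1 time (34.3%). CCAAT was thus present in 3 of the 9 regions, near the share of 34.3% of all promoters with at least 1. A match describes these letters and is not evidence of a site in use.

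Over all 18 rats, the probe sets passing the filter showed 6 genes higher in S.SHR(2) (Kcnab1, Ect2, Snx27, Slc35a3, Mfsd1 and Nhlrc3) and 4 lower (Chd1l, Tsc22d2, Dclk1 and Eif5a2), going by the brightest probe set of each gene. The median size of the strain difference was 0.47 over the 16 probe sets and 0.07 over all 18625 tested, which is what the choice of genes fixes. In the fit without covariates 3 of the 16 passed an adjusted p of 0.05, against 0.123% of all probe sets. All 3, from Chd1l and Dclk1, were lower in S.SHR(2), against 0.102% of all called in that direction, and none was called higher, against 0.0215%. The ranges of the 9 S.SHR(2) and the 9 Dahl S rats were separate for 4, against 0.113%. With block as an additive covariate 12 of the 16 passed, at least 1 from each gene, against 0.494% of all probe sets. These counts come from the contrast that chose the genes, and nothing is read from them. What the choice did not use is how the level itself, averaged over the strains, differed between blocks.

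**Figure D1:**
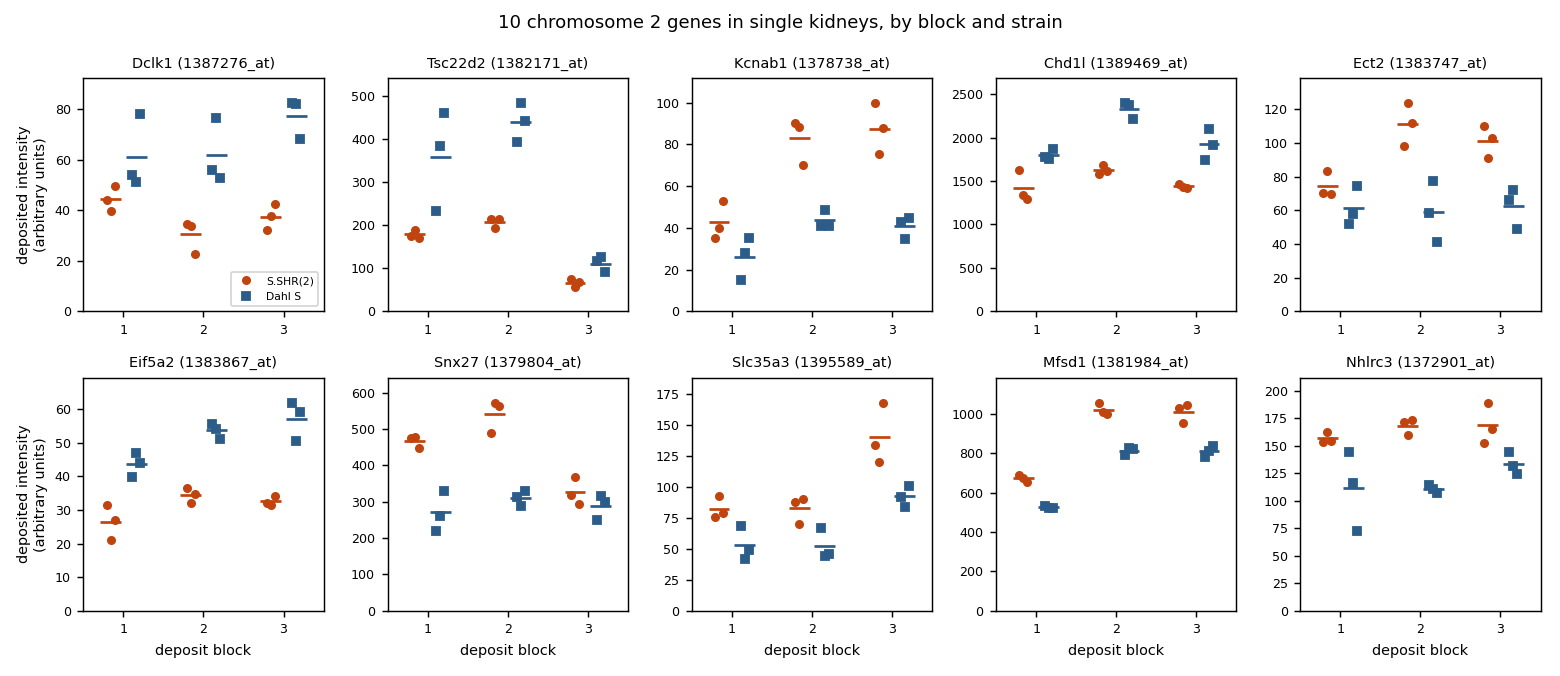
Deposited intensity (vertical axis, arbitrary units, starting at 0) of 1 probe set for each of the 10 genes in each of the 18 rats, by deposit block (horizontal axis), with S.SHR(2) as circles left of Dahl S as squares and a bar at the mean of 3 rats. Chd1l, Tsc22d2, Dclk1 and Eif5a2 lie lower in S.SHR(2) in every block, while the circles and squares of Ect2 overlap in block 1 and those of Snx27 in block 3.

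Chd1l encodes an ATP-dependent chromatin remodelling enzyme that is recruited to DNA breaks by poly(ADP-ribose). Chd1l gave 1621.4, 1343.5 and 1294.7 units in the S.SHR(2) kidneys of block 1, against 1771.5, 1755.7 and 1869.1 units in the Dahl S kidneys. In block 2 the S.SHR(2) kidneys read 1579.6, 1686.9 and 1618.6 units for Chd1l and the Dahl S kidneys 2393.0, 2375.0 and 2216.3 units. Block 3 held Chd1l at 1468.5, 1431.3 and 1425.1 units in S.SHR(2) and at 1744.9, 2100.0 and 1919.8 units in Dahl S. Every S.SHR(2) kidney read below every Dahl S kidney, in each block and over all 18 rats, for this probe set, 1389469_at. The means were 1496.6 ± 136.0 units in S.SHR(2) and 2016.1 ± 262.2 units in Dahl S (SD, n = 9 each), a difference of -0.47 ± 0.076 (SE). Within blocks 1, 2 and 3 it was -0.33, -0.53 and -0.54. The other probe set of the gene, 1382611_at, averaged 406.4 ± 51.8 units in S.SHR(2) and 626.4 ± 93.1 units in Dahl S, a difference of -0.62 ± 0.094. Its differences within the blocks were -0.52, -0.69 and -0.63, and its strain ranges were separate in each block, so both probe sets of Chd1l pointed the same way in each block. Of the 10 tested genes for ADP-ribose-dependent repair and chromatin remodelling, none passed the strain test at an adjusted p of 0.05, and none had an unadjusted p under 0.05. Parp1, which makes the poly(ADP-ribose) that Chd1l binds, gave a strain difference of 0.04, and the remodeller Chd1 gave -0.14. The smallest p of the list in the strain test was that of Smarca5, at -0.18 (unadjusted p = 0.074). In this list 5 estimates were above 0 and 5 below 0.

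Tsc22d2 encodes a leucine-zipper protein of the TSC22 domain family, whose members are linked to cell volume and stress signalling through NRBP and WNK proteins. Block 1 readings of Tsc22d2 were 174.5, 189.7 and 171.0 units in S.SHR(2) and 233.1, 383.9 and 460.5 units in Dahl S. The S.SHR(2) rats of block 2 had Tsc22d2 at 213.8, 194.6 and 213.8 units and the Dahl S rats at 394.2, 482.7 and 441.4 units. For block 3 the Tsc22d2 readings were 74.9, 57.4 and 68.3 units in S.SHR(2) and 116.0, 125.1 and 92.0 units in Dahl S. The S.SHR(2) values were the lower ones in every block without overlap, but over all 18 rats the strains overlapped, with both strains low in block 3. The strain difference of probe set 1382171_at was -0.81 ± 0.33, with -0.91, -1.02 and -0.50 within blocks 1, 2 and 3. The standard error shrank to 0.11 with block as a covariate, at the same difference. Of the 6 tested family members and partners none passed the strain test, and none had an unadjusted p under 0.05. Tsc22d1, the closest paralog tested, had a strain difference of -0.10. Nrbp2 had the smallest p of the list in the strain test, at -0.18 (unadjusted p = 0.071). In this list 1 estimate was above 0 and 5 were below 0.

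Dclk1 encodes a doublecortin-domain kinase that binds microtubules and marks tuft cells in epithelia. Dclk1 gave 44.0, 39.7 and 49.5 units in the S.SHR(2) kidneys of block 1, against 54.1, 51.4 and 78.3 units in the Dahl S kidneys. In block 2 the S.SHR(2) kidneys read 34.8, 34.0 and 22.7 units for Dclk1 and the Dahl S kidneys 56.0, 76.5 and 52.9 units. Block 3 held Dclk1 at 32.3, 37.7 and 42.4 units in S.SHR(2) and at 82.4, 82.1 and 68.2 units in Dahl S. No S.SHR(2) kidney reached the lowest Dahl S kidney in any block or over all rats for probe set 1387276_at. It averaged 37.5 ± 7.75 units in S.SHR(2) and 66.9 ± 13.3 units in Dahl S, a difference of -0.58 ± 0.12. The difference was -0.32 in block 1, -0.76 in block 2 and -0.65 in block 3. A second tested probe set, 1369686_at, read 25.5 ± 7.68 units in S.SHR(2) and 36.4 ± 7.25 units in Dahl S, a difference of -0.30 ± 0.10. Its strain ranges were separate in block 3 and overlapped in blocks 1 and 2, with differences of -0.18, -0.18 and -0.54. The remaining Dclk1 probe sets did not pass the filter: 1389706_at averaged 11.6 ± 6.84 units in S.SHR(2) and 21.0 ± 7.06 units in Dahl S. For 1380429_at the averages were 7.17 ± 3.9 units in S.SHR(2) and 10.4 ± 5.61 units in Dahl S. The mean of S.SHR(2) was thus the lower for all 4 probe sets of Dclk1, of which 1 had separate strain ranges. Its paralog Dclk2, also on chromosome 2, gave -0.17 (unadjusted p = 0.050, adjusted p = 1), and none of the 2 tested genes of the family passed.

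Ect2 encodes the guanine nucleotide exchange factor that activates RhoA at the division plane, a step of cytokinesis. Block 1 readings of Ect2 were 70.0, 83.1 and 69.7 units in S.SHR(2) and 51.8, 58.0 and 74.4 units in Dahl S. The S.SHR(2) rats of block 2 had Ect2 at 97.9, 123.5 and 112.0 units and the Dahl S rats at 58.3, 77.4 and 41.1 units. For block 3 the Ect2 readings were 110.3, 90.9 and 102.8 units in S.SHR(2) and 66.2, 71.9 and 49.0 units in Dahl S. In block 1 the highest Dahl S rat read above 2 of the 3 S.SHR(2) rats, whereas in blocks 2 and 3 every S.SHR(2) rat was the higher. The means over all rats were 95.6 ± 18.8 units in S.SHR(2) and 60.9 ± 12.4 units in Dahl S, a difference of 0.58 ± 0.12. Its size was 0.27 in block 1, 0.80 in block 2 and 0.67 in block 3. Of the 6 tested genes of the cytokinesis list none passed the strain test. Prc1, which bundles microtubules of the division spindle, had -0.27 at an unadjusted p of 0.044 (adjusted p = 1), and Racgap1, the partner of Ect2 in the spindle midzone, had -0.18. Of the 6 estimates, 2 were above 0, those of Cit (0.12) and Ccnb1 (0.07), and 4 were below 0.

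Eif5a2 encodes the second form of the translation factor eIF5A, the protein that carries the modified residue hypusine. Eif5a2 gave 31.4, 21.0 and 27.1 units in the S.SHR(2) kidneys of block 1, against 39.9, 47.1 and 44.1 units in the Dahl S kidneys. In block 2 the S.SHR(2) kidneys read 36.7, 32.0 and 34.7 units for Eif5a2 and the Dahl S kidneys 55.7, 54.3 and 51.3 units. Block 3 held Eif5a2 at 32.0, 31.5 and 34.2 units in S.SHR(2) and at 62.0, 50.5 and 59.1 units in Dahl S. The strains did not overlap in any block or over all rats for probe set 1383867_at. It averaged 31.2 ± 4.66 units in S.SHR(2) and 51.6 ± 7.1 units in Dahl S, a difference of -0.48 ± 0.099. Among the members this was a flat profile, with -0.51, -0.49 and -0.43 in blocks 1, 2 and 3. The dim probe set 1393063_at, left out of the tests, read 14.5, 22.3 and 30.0 units in S.SHR(2), against 14.3, 19.2 and 20.4 units in Dahl S, in block 1. It averaged 29.4 units in S.SHR(2) and 37.8 units in Dahl S in block 2, and 27.4 units in S.SHR(2) and 44.4 units in Dahl S in block 3. The S.SHR(2) mean of that probe set was therefore the lower one in blocks 2 and 3 and not in block 1. None of the 7 tested genes of the hypusine pathway passed the strain test or had an unadjusted p under 0.05. The main form Eif5a had a strain difference of 0.04, and Odc1, which makes putrescine at the start of polyamine synthesis, had 0.18.

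Kcnab1 encodes a beta subunit of voltage-gated potassium channels of the Kv1 family. Block 1 readings of Kcnab1 were 35.3, 39.9 and 53.0 units in S.SHR(2) and 14.8, 28.1 and 35.3 units in Dahl S. The S.SHR(2) rats of block 2 had Kcnab1 at 90.3, 88.2 and 70.3 units and the Dahl S rats at 41.0, 48.6 and 41.0 units. For block 3 the Kcnab1 readings were 99.6, 75.2 and 87.6 units in S.SHR(2) and 42.7, 34.6 and 44.7 units in Dahl S. The strains were apart in blocks 2 and 3, and in block 1 the lowest S.SHR(2) rat and the highest Dahl S rat had the same value of 35.3 units. The means were 71.0 ± 23.3 units in S.SHR(2) and 36.8 ± 10.2 units in Dahl S, a difference of 0.73 ± 0.18 for probe set 1378738_at. Within blocks 1, 2 and 3 the difference was 0.53, 0.73 and 0.93. The other probe set, 1369847_at, did not pass the filter and averaged 29.8 ± 12.3 units in S.SHR(2) and 28.5 ± 17.0 units in Dahl S. The probe sets of Kcnab1 thus differed in whether the strains stood apart. All 8 genes of the list of Kv1 channel subunits were named on the array and none passed the filter, among them Kcnab2 and Kcnab3, so the channel partners of Kcnab1 gave no test here.

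Snx27 encodes a sorting nexin with a PDZ domain that returns membrane proteins from endosomes to the cell surface together with retromer. Snx27 gave 476.2, 477.3 and 448.4 units in the S.SHR(2) kidneys of block 1, against 220.2, 260.1 and 330.8 units in the Dahl S kidneys. In block 2 the S.SHR(2) kidneys read 488.1, 572.8 and 564.8 units for Snx27 and the Dahl S kidneys 312.6, 288.1 and 329.0 units. Block 3 held Snx27 at 318.2, 369.4 and 294.8 units in S.SHR(2) and at 250.6, 314.5 and 298.7 units in Dahl S. In blocks 1 and 2 every S.SHR(2) kidney read above every Dahl S kidney, and in block 3 the strains overlapped. The means of this probe set, 1379804_at, were 445.6 ± 99.3 units in S.SHR(2) and 289.4 ± 38.2 units in Dahl S, a difference of 0.58 ± 0.12. The difference was 0.78 in block 1, 0.78 in block 2 and 0.19 in block 3. The difference in block 3 minus that in block 1 was -0.59 ± 0.19 (95% interval -0.98 to -0.20).

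The other tested probe sets of Snx27 did not show this strain difference. Probe set 1372203_at averaged 279.1 ± 31.3 units in S.SHR(2) and 261.8 ± 36.7 units in Dahl S, a difference of 0.10 ± 0.09. For 1381394_at the averages were 125.9 ± 25.0 units in S.SHR(2) and 123.5 ± 15.7 units in Dahl S, a difference of 0.04 ± 0.11. Probe set 1377526_at averaged 43.8 ± 18.5 units in S.SHR(2) and 51.7 ± 20.0 units in Dahl S, a difference of -0.17 ± 0.19. Its differences were -0.67, -0.21 and 0.39 in blocks 1, 2 and 3. Dahl S replicate 1 read 101.0 units for it, above the 31.0 to 57.4 units of the other Dahl S rats. Of the 12 tested genes of retromer and related sorting nexins none passed the strain test and none had an unadjusted p under 0.05. Vps35, the core subunit of retromer, gave 0.00, and Snx17 gave 0.00. These were among the estimates closest to 0. Vps26b had the smallest p of the list in the strain test, at 0.15 (unadjusted p = 0.097), and Vps29 gave 0.09. Among the 12, 5 estimates were above 0 and 7 below 0.

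**Figure D2:**
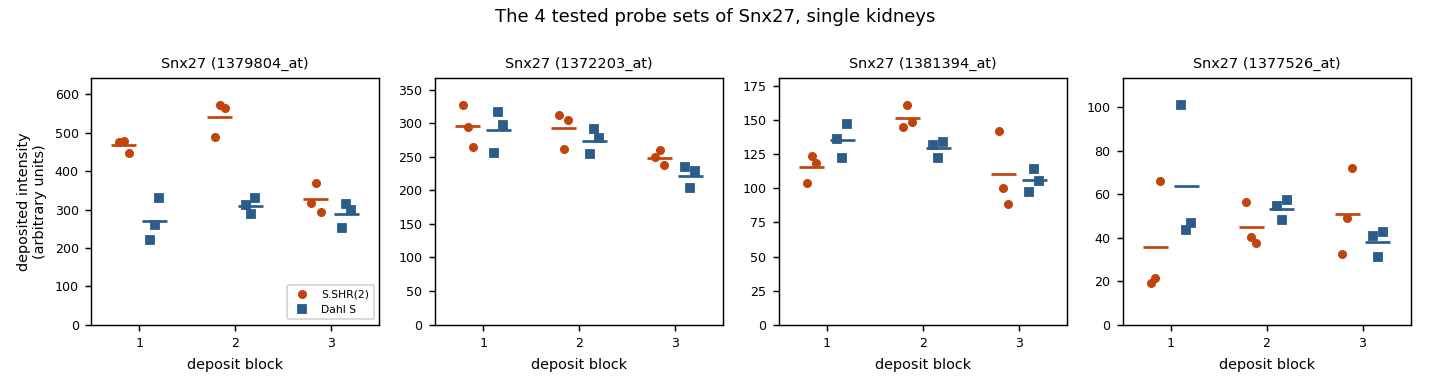
Deposited intensity (vertical axes, arbitrary units, starting at 0, each with its own scale) of the 4 tested Snx27 probe sets in each of the 18 rats, by deposit block, with S.SHR(2) as circles left of Dahl S as squares and a bar at the mean of 3 rats. Probe set 1379804_at stands higher in S.SHR(2) in blocks 1 and 2 and overlaps in block 3, while the strain differences of the others over all rats lie between -0.17 and 0.10.

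Slc35a3 encodes the Golgi transporter for UDP-N-acetylglucosamine, a donor of N-glycan branching. Block 1 readings of Slc35a3 were 75.7, 92.5 and 78.8 units in S.SHR(2) and 68.6, 41.4 and 49.3 units in Dahl S. The S.SHR(2) rats of block 2 had Slc35a3 at 87.6, 69.9 and 90.3 units and the Dahl S rats at 66.4, 44.1 and 45.9 units. For block 3 the Slc35a3 readings were 133.2, 120.2 and 167.7 units in S.SHR(2) and 91.6, 83.7 and 100.9 units in Dahl S. Each block showed the S.SHR(2) rats above the Dahl S rats without overlap. Over all rats the means were 101.8 ± 32.2 units in S.SHR(2) and 65.8 ± 22.3 units in Dahl S, a difference of 0.57 ± 0.17. The difference was 0.57, 0.55 and 0.58 in blocks 1, 2 and 3, and that of block 3 minus that of block 1 was 0.01 (95% interval -0.49 to 0.52). None of the 9 tested genes of N-glycan branching and nucleotide sugar transport passed the strain test. Mgat4b, a branching enzyme, had 0.17 at an unadjusted p of 0.041 (adjusted p = 1), and the paralog Slc35a2, which carries UDP-galactose, had 0.09.

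Mfsd1 encodes a lysosomal membrane transporter of the major facilitator superfamily. Mfsd1 gave 692.4, 675.5 and 653.3 units in the S.SHR(2) kidneys of block 1, against 530.0, 520.8 and 523.9 units in the Dahl S kidneys. In block 2 the S.SHR(2) kidneys read 1058.1, 1008.8 and 1000.5 units for Mfsd1 and the Dahl S kidneys 791.2, 827.9 and 820.1 units. Block 3 held Mfsd1 at 1031.5, 955.1 and 1044.9 units in S.SHR(2) and at 783.8, 812.1 and 837.8 units in Dahl S. The S.SHR(2) rats read above the Dahl S rats in each block, yet over all rats the strains overlapped, with S.SHR(2) in block 1 reading below Dahl S in blocks 2 and 3. The means were 902.2 ± 174.1 units in S.SHR(2) and 716.4 ± 144.6 units in Dahl S for probe set 1381984_at. This was a difference of 0.30 ± 0.13, or 0.30 ± 0.047 with block as a covariate. Within blocks 1, 2 and 3 it was 0.33, 0.33 and 0.23, and the difference in block 3 minus that in block 1 was -0.10 (95% interval -0.35 to 0.14). Probe set 1379671_at averaged 638.6 ± 118.0 units in S.SHR(2) and 483.1 ± 98.3 units in Dahl S, a difference of 0.38 ± 0.13. Its differences within the blocks were 0.44, 0.38 and 0.33, again without overlap in any block. None of the 6 tested genes of the lysosomal membrane list passed the strain test. Glmp, the lysosomal protein that binds Mfsd1 and protects it from degradation and whose gene also lies on chromosome 2, averaged 1901.6 ± 206.8 units in S.SHR(2) and 1643.2 ± 169.9 units in Dahl S. Its difference was 0.18 ± 0.0681 (unadjusted p = 0.017, adjusted p = 1).

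Nhlrc3 encodes a protein with NHL repeats. Block 1 readings of Nhlrc3 were 153.5, 162.9 and 154.4 units in S.SHR(2) and 144.6, 116.3 and 72.5 units in Dahl S. The S.SHR(2) rats of block 2 had Nhlrc3 at 171.8, 159.5 and 173.4 units and the Dahl S rats at 114.4, 110.9 and 106.6 units. For block 3 the Nhlrc3 readings were 152.7, 189.2 and 165.0 units in S.SHR(2) and 144.5, 131.6 and 124.6 units in Dahl S. The strains did not overlap in any block or over all rats. The means were 164.7 ± 11.9 units in S.SHR(2) and 118.4 ± 22.1 units in Dahl S, a difference of 0.47 ± 0.096. Within blocks 1, 2 and 3 it was 0.51, 0.54 and 0.36. Dahl S replicate 3 had the lowest value of this gene, 72.5 units. Of the 5 tested genes with NHL repeats none passed the strain test, and Nhlrc2, the closest by name, had a difference of 0.03.

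Taking the lists of pathway partners as 1 set, 75 of 81 genes were named on the array and 63 were tested. No partner passed limma's strain test at an adjusted p of 0.05, against 0.0763% of all genes tested, and 3 had an unadjusted p under 0.05, against 4.23% of all genes. Their estimates split into 32 above 0 and 31 below 0, with a median of 0.00. These counts come from the fit without covariates, whose errors include the spread between blocks. With block as a covariate no partner passed an adjusted p of 0.05 either, and unadjusted p-values of that fit were not counted.

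The evenness of the strain difference over blocks is the strain by block interaction of limma's fit. No probe set of the 10 genes passed an adjusted p of 0.05 for it, against 0.00537% of all probe sets, which is 1 of 18625. At an unadjusted p under 0.05 there were 2 of 16, both from Snx27, against 6.56% of all. The differences within blocks were looked at when the genes were listed, so nothing is read from these counts. The median of the largest difference between any pair of blocks was 0.28 over the 16 and 0.28 over all probe sets. The intervals describe what the 3 rats per strain and block can resolve. For Chd1l 1389469_at the difference in block 3 minus that in block 1 lay between -0.47 and 0.06, for Dclk1 1387276_at between -0.85 and 0.19, and for Tsc22d2 between -0.10 and 0.92. The corresponding interval for Eif5a2 was -0.37 to 0.51, for Kcnab1 -0.13 to 0.93, for Ect2 -0.13 to 0.94 and for Nhlrc3 -0.61 to 0.32. Apart from Snx27 1379804_at and 1377526_at, every such interval of block 3 minus block 1 included 0. For block 3 minus block 2 the interval left out 0 for Tsc22d2 (0.51, interval 0.01 to 1.02) and for Snx27 1379804_at (-0.59, interval -0.98 to -0.20), and for block 2 minus block 1 all 16 intervals included 0.

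Strain ranges were separate for 10 of the 16 probe sets in block 1, 13 in block 2 and 13 in block 3, against 10.6%, 9.27% and 20.4% of all probe sets. They were separate in all 3 blocks in 1 direction for 9 probe sets of 7 genes, against 0.317% of all, and nothing is read from this since the rule used these values. The 9 were those of Chd1l (both), Tsc22d2, Dclk1 1387276_at and Eif5a2, 5 probe sets lower in S.SHR(2) in each block, against 0.204% of all, and those of Slc35a3, Mfsd1 (both) and Nhlrc3, 4 probe sets higher in S.SHR(2) in each, against 0.113%. The same pattern was found for 2.42% of the 951 tested probe sets of other chromosome 2 genes and for 0.114% of the 13106 of other chromosomes. On the normalized scale Kcnab1 joined the list and 10 of 16 had it, against 0.349% of all. The sign of the difference was the same in all 3 blocks for 14 probe sets, against 27.9% of all, and the exceptions were Snx27 1381394_at and 1377526_at.

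**Figure D3:**
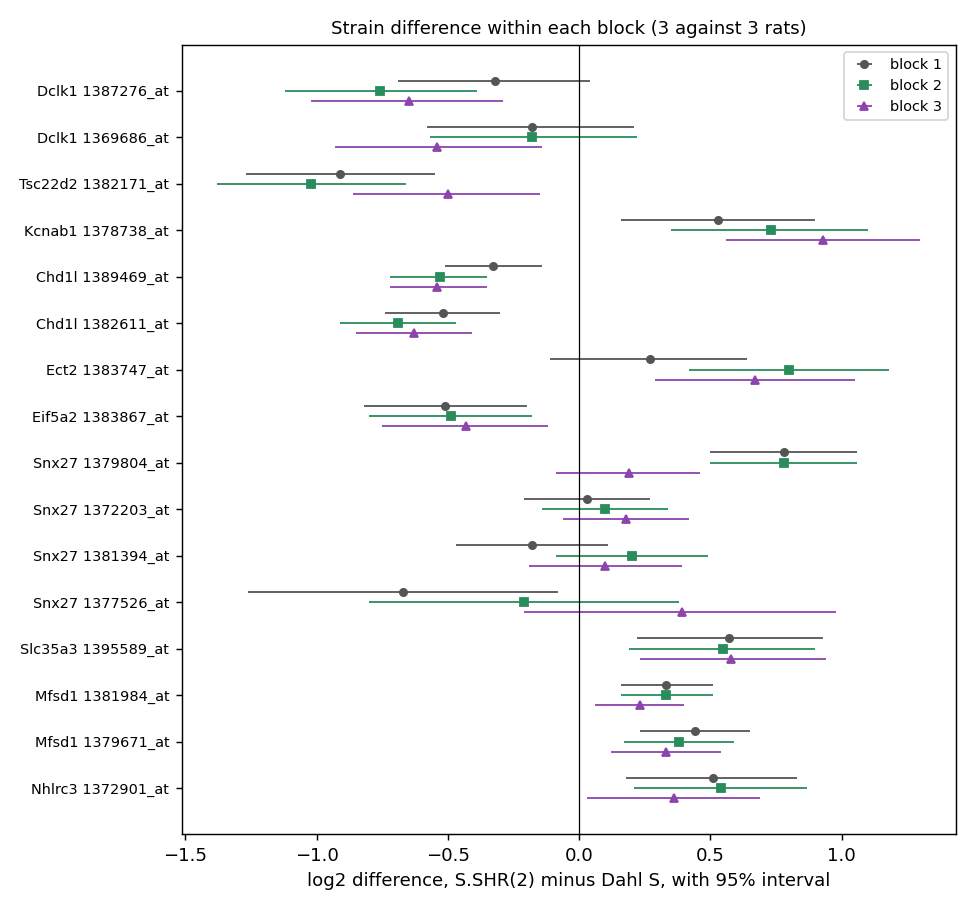
Strain difference of each tested probe set of the 10 genes within blocks 1 (circles), 2 (squares) and 3 (triangles), as log2 S.SHR(2) minus Dahl S with its 95% interval from 3 against 3 rats (horizontal axis), 1 row per probe set. The 3 marks of Slc35a3 (0.57, 0.55 and 0.58) and Eif5a2 lie close together, those of Snx27 1379804_at split at block 3 (0.19 against 0.78), and those of Snx27 1377526_at lie on both sides of 0.

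The level of the genes between blocks, averaged over the strains, was outside the rule. Adjusted p-values of the level are those over the 3 blocks, except where a step between a pair of blocks is named with its p. The level passed the block test for 11 of the 16 probe sets, from 7 genes, against 50.1% of all probe sets. In block 2 relative to block 1, 5 from 3 genes stood higher, against 10.1% of all, and 0 lower, against 9.34%. In block 3 relative to block 1, 6 from 5 genes stood higher, against 20.8%, and 2 from 2 genes lower, against 20.6%. In block 3 relative to block 2, 1 stood higher, against 17.9%, and 5 from 3 genes lower, against 17.1%. Probe sets of the same gene are not separate genes in these counts. Tsc22d2 showed the widest one among the 16: it fell by 1.36 ± 0.12 in block 3 relative to block 1 and by 1.63 ± 0.12 relative to block 2 (adjusted p = 1.3e-09). Its intensity in block 3 was 66.9 ± 8.84 units in S.SHR(2) and 111.0 ± 17.1 units in Dahl S, and in block 2 it was 207.4 ± 11.1 units in S.SHR(2) and 439.4 ± 44.3 units in Dahl S (SD, n = 3 each). Of its family, Tsc22d4 differed by -0.50 in block 3 relative to block 1 (adjusted p = 2.2e-04), whereas Tsc22d1 differed by 0.68 (adjusted p = 1.8e-06). Mfsd1 rose by 0.58 ± 0.059 in block 2 and by 0.58 ± 0.059 in block 3 relative to block 1 for 1381984_at (adjusted p = 4.0e-08), and by 0.55 and 0.54 for 1379671_at (adjusted p = 1.8e-06). Kcnab1 likewise stood higher than block 1 by 0.68 in block 2 and 0.70 in block 3 (adjusted p = 1.3e-04).

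Slc35a3 rose in block 3, by 0.69 over block 1 and 0.67 over block 2 (adjusted p = 8.9e-05), and its block 2 minus block 1 difference was 0.01 (adjusted p = 0.96 for this step). Chd1l 1382611_at stood higher than block 1 by 0.31 in block 2 and by 0.36 in block 3 (adjusted p = 7.8e-04), whereas Chd1l 1389469_at stood higher in block 2 alone, by 0.27 over block 1 and with block 3 at -0.21 relative to block 2 (adjusted p = 0.0031). The probe sets of Chd1l therefore shared the strain difference and differed in their block profile. Eif5a2 passed over the 3 blocks (adjusted p = 0.02). It stood higher than block 1 by 0.35 in block 3 (adjusted p = 0.011 for this step), and its difference of 0.28 in block 2 did not pass (adjusted p = 0.064). The call over the 3 blocks was lost without S.SHR(2) replicate 2 (adjusted p = 0.062), without S.SHR(2) replicate 8 (0.095), with values as deposited (0.085) and with a pseudocount of 64 (0.086). Snx27 1379804_at fell by 0.42 in block 3 relative to block 2 (adjusted p = 0.0016 for this step, 0.0034 over the 3 blocks). For the same step 1372203_at fell by 0.27 (adjusted p = 0.013) and 1381394_at fell by 0.35 (adjusted p = 0.0084). The calls of these 2 over the 3 blocks were lost when each array was centred on its median (adjusted p = 0.058 and 0.069), and that of 1381394_at also without S.SHR(2) replicate 9 (0.050). Dclk1 (adjusted p = 0.13 for 1387276_at, which became 0.044 with array weights, and 0.93 for 1369686_at), Ect2 (adjusted p = 0.22) and Nhlrc3 (adjusted p = 0.33) did not pass. Among the partner genes 36 of 63 passed the block test, against 49.9% of all genes.

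Other features moved with the blocks. On the deposited scale, where the brightest markers weigh most, the 11 kidney markers summed to 32602.0 to 35050.9 units in block 1. The sums were 30239.6 to 34319.2 in block 2 and 24236.7 to 28010.8 in block 3. On the normalized scale the 10 tested kidney markers had a median of -0.15 in block 3 relative to block 1. Umod (0.23), Lrp2 (0.12) and Slc12a3 (0.77) stood higher and the other tested ones lower, Calb1 the farthest (-1.38). The 4 leukocyte markers summed to 90.3 to 230.5 in block 1, 266.5 to 340.8 in block 2 and 302.2 to 527.0 in block 3, and the 2 erythroid markers to 1974.3 to 10069.0, 1867.4 to 5316.9 and 2115.7 to 3614.8. Their part in the block differences of the 10 genes was not tested. The age of 16 rats is not labelled, so block and age cannot be told apart here.

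**Figure D4:**
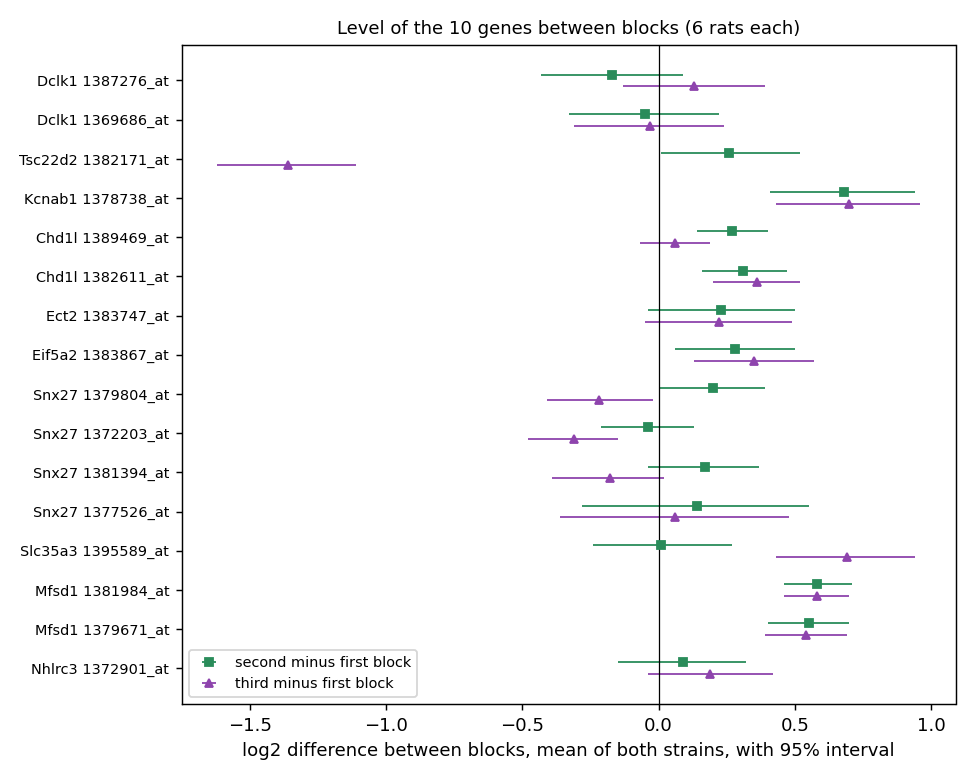
Level difference between blocks of each tested probe set of the 10 genes, averaged over the strains, as log2 of block 2 minus block 1 (squares) and block 3 minus block 1 (triangles) with 95% intervals from 6 rats per block. Tsc22d2 lies farthest left in block 3 (-1.36), Slc35a3 is near 0 in block 2 and at 0.69 in block 3, and both Mfsd1 probe sets lie between 0.54 and 0.58 in both contrasts.

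The genes lie apart along the chromosome. Counting the 695 chromosome 2 genes that were tested in their order in the GRCr8 gene table, Ect2 was number 205, Eif5a2 212, Nhlrc3 265, Dclk1 273, Tsc22d2 280, Kcnab1 294, Mfsd1 303, Snx27 429, Chd1l 484 and Slc35a3 577. Higher and lower genes were interleaved along this order, with Ect2 higher and Eif5a2 lower in S.SHR(2) at places 205 and 212. The 3 nearest tested genes on either side of each gave 60 neighbours. No neighbour passed limma's strain test at an adjusted p of 0.05. At an unadjusted p under 0.05 there were 11, or 18.3%, against 11.8% of the 685 other tested chromosome 2 genes and 4.23% of all genes. The median size of the difference was 0.10 among neighbours and 0.07 over all genes.

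Pld1, a phospholipase D gene 3 places before Eif5a2, averaged 448.6 ± 72.5 units in S.SHR(2) and 307.2 ± 46.7 units in Dahl S, a difference of 0.53 ± 0.11 (adjusted p = 0.053). Gmps, the GMP synthetase gene next to Kcnab1, had -0.32 ± 0.075 (adjusted p = 0.14), and Mme, which encodes the peptidase neprilysin of the proximal tubule, had -0.34 ± 0.088 (adjusted p = 0.31). S100a10, which encodes the partner of annexin A2 and lies near Snx27, had -0.76 ± 0.23 (adjusted p = 0.59). With block as a covariate 5 of the 60 passed: these 4 and Rarres1, the gene next to Mfsd1 (0.44, adjusted p = 0.019). The adjusted p in that fit was 6.2e-04 for Pld1, 4.9e-04 for S100a10, 0.013 for Gmps and 0.034 for Mme. Pld1, Mme and S100a10 lie 3 places from Eif5a2, Kcnab1 and Snx27, so they are not set against the immediate neighbours given next. Beside Eif5a2, Slc2a2 and Cldn11 had 0.03 and -0.24, and beside Snx27, mrpl9 and Cgn had 0.07 and 0.04. Spart and Nbea beside Dclk1 had 0.09 and -0.27, Pfn2 and Serp1 beside Tsc22d2 had -0.08 and 0.03, and Bcl9 and Fmo5 beside Chd1l had 0.08 and -0.24. Tbl1xr1 and Nceh1 beside Ect2 had -0.14 and -0.04, and Mfsd14a and Frrs1 beside Slc35a3 had 0.00 and 0.21. For all of these the adjusted p was 0.66 or above. Sass6, 2 places before Slc35a3, lay farther from 0, at -0.41 ± 0.12 (unadjusted p = 0.0035, adjusted p = 0.62), and did not pass with block as a covariate.

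**Figure D5:**
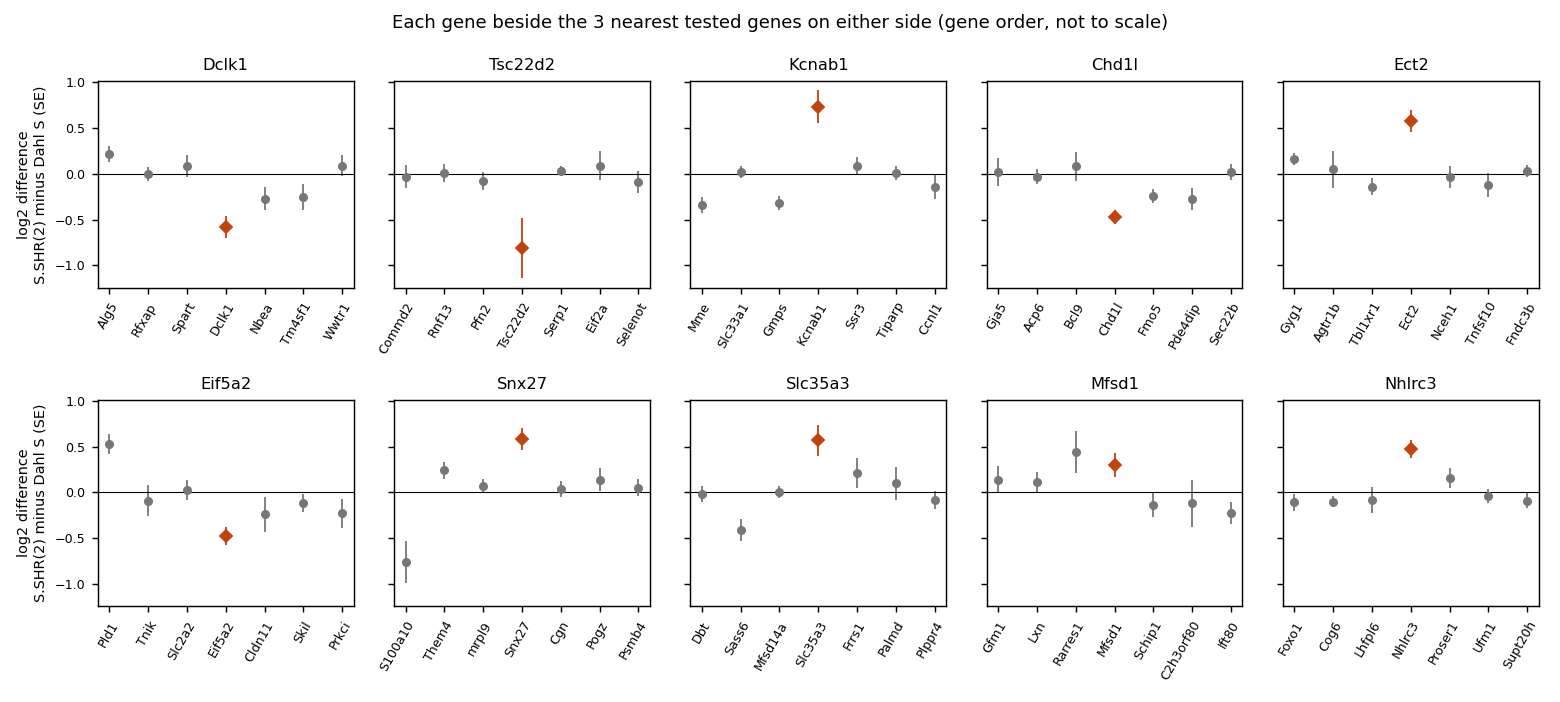
Strain difference over all 18 rats, log2 S.SHR(2) minus Dahl S with its standard error (vertical axis), of each of the 10 genes (diamond, its brightest probe set) and of the 3 nearest tested genes on either side (circles) in chromosome order, not to scale. The diamonds lie between -0.81 and 0.73, and the neighbours farthest from 0 are S100a10 at -0.76 and Pld1 at 0.53.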

How the data were processed

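Total RNA of whole kidney was labelled and hybridised to 1 array per rat, per the labels' protocols. The authors deposited linear intensities, 1 for each probe set of each array. The scaling software was not given in the sources used here; the trimmed mean was 150.046 to 150.054 on every array. No scanner files were used. The 57 control probe sets were left out, values were taken as log2(intensity + 16), quantile-normalized because array medians spanned 0.235 (limit 0.2), and the 40% dimmest probe sets (mean under 5.48) dropped, leaving 18625.

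Strains were compared with limma 3.58.1 (R 4.3.3), lmFit and eBayes with trend, two-sided, without covariates. Blocks, the interaction and differences within blocks came from a fit of the 6 strain-by-block means. P-values were adjusted by Benjamini-Hochberg over the 18625 probe sets, or, for partner and neighbour genes, read from that same adjustment at each gene's brightest probe set. Sums of markers were compared by exact permutation over all rats, without regard to block. The fits were tested on simulated data. The rats are the replicates, and their number limits the precision.

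Gene names came from GEO's platform annotation (20826 with 1 gene, 436 with several, 9780 with none) and matched to the GRCr8 gene table for 20805. Alternatives were the pseudocount, the filter, the normalization, the variance model, array weights, block as a covariate and each of the 18 rats left out. The genes and partner lists were chosen with earlier results of these data known. All 10 genes were named with every probe set. The rule for partners was up to 2 per list by smallest p and the closest paralog, but it was not followed in every list. In the strain test Azin1 (-0.11, unadjusted p = 0.18) and Trim32 (0.10, unadjusted p = 0.17) had the smallest p of the Eif5a2 and Nhlrc3 lists and were not named above. Neighbours named were those past the threshold or next to a gene. Mme, Gmps, Pld1, S100a10, Chd1 and further genes outside these rules were named after their values were seen.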

Additional observations from a re-analysis of the deposited data

Results flagged for a closer look

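Among 40 groups of 9 rats checked, the 20 probe sets in each strain, 2 held a value that stood apart by Dixon's criterion (gap over range above 0.493), where chance alone flags about 5% of groups. For Dclk1 1369686_at, Dahl S replicate 4 in block 2 read 20.0 units against 33.5 to 44.6 units in the other Dahl S rats, a gap of 0.549 of the range. For Snx27 1377526_at, Dahl S replicate 1 in block 1 read 101.0 units against 31.0 to 57.4 units in the others, a gap of 0.623 of the range. Neither is the brightest probe set of its gene. The first of these values enters the strain difference of -0.30 given above for Dclk1 1369686_at.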

How the results depend on the processing

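The strain difference kept its sign in every alternative for 15 of the 16 tested probe sets, and that of Snx27 1381394_at came to 0.00 with either S.SHR(2) replicate 5 or Dahl S replicate 7 left out. Of 426 block results over the alternatives, 418 stayed on their side of the threshold, 7 lost and 1 gained the call. Counts that moved by over 1.5 times were as follows. Array weights gave 41 called probe sets for the strain difference in place of 23, 43 for the interaction in place of 1, and 8 of the 16 probe sets of the 10 genes in place of 3. Block as a covariate gave 92 called probe sets, 12 of the 16, and 5 neighbours in place of 0. A filter of 60% left 9 probe sets with 1 sign in all blocks in place of 14, fewer being tested. A pseudocount of 64, values as deposited, arrays centred on medians and array weights each gave 1 called neighbour. With each rat left out, the strain difference gave 16 to 31 called probe sets, 2 to 5 of the 16 and 0 to 1 neighbours, and the interaction 1 to 3. The count of 5 came without Dahl S replicate 1 and that of 3 without S.SHR(2) replicate 1. A neighbour was called without Dahl S replicate 1 or S.SHR(2) replicate 7, 8 or 9. No partner gene passed in any alternative. The cause of these changes was not tested. No paired analysis was possible because the labels carry no replicate numbers, and those used here only name rats in accession order. Dim probe sets such as Dclk1 1369686_at, Eif5a2 1383867_at and Kcnab1 1378738_at lie close to the pseudocount, which limits the size of their differences.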
